A study of Mus musculus with 4 samples.

Results

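The genes described here make, bind or remove extracellular adenosine. The rule took every probe set that the platform annotation gives to Entpd1, Nt5e, Ada, Dpp4, Adora2a, Adora2b or Cd38 alone. Of these 7 genes, 4 had such a probe set among the 41345 of the array, with 1 probe set each: Entpd1, Nt5e, Ada and Dpp4, which are 4 of the 22180 named genes analysed. Adora2a, Adora2b and Cd38 were not analysed here. Both groups were Tregs, which carry Foxp3 and hold other T-cells in check. Their source was the NOD mouse, prone to autoimmune diabetes. All samples came from co-cultures of 5 days with G-BMDCs, which are bone marrow cells turned into dendritic cells by GM-CSF, and no sample was an uncultured control. After culture the Tregs were sorted by dilution of a dye that each division weakens, into resting Tregs that had kept it and proliferating Tregs that had diluted it. The labels name the dye CFSE and the methods Cell-Trace Violet. There were 2 arrays of resting and 2 of proliferating Tregs. The sources used here give neither the age of the mice nor separate cultures for the arrays of a group, so the p-values cover the spread among these arrays alone, and that spread may be technical.

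Extracellular ATP, released by stressed or dying cells, is a danger signal. CD39, encoded by Entpd1, is an ectonucleotidase that removes phosphates from ATP and ADP to give AMP, and CD73, encoded by Nt5e, turns AMP into adenosine. Both sit on the surface of mouse Tregs, and the adenosine they make raises cAMP in neighbouring T-cells through the receptors encoded by Adora2a and Adora2b, which restrains those cells. Adenosine deaminase, encoded by Ada, ends the signal by turning adenosine into inosine, inside the cell and outside it. CD26, encoded by Dpp4, is a surface peptidase. In humans it also holds adenosine deaminase at the cell surface, while the mouse protein is known to bind it poorly. CD38 consumes NAD and feeds another route to adenosine.

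The promoters of the 4 measured genes are shown because these genes moved together on the deposited values and because the factors of the study (NF-κB, STAT5 and Rbpj, the DNA-binding partner of Notch) and the cAMP arm of adenosine signaling each have a known short motif. The stretches run from 250 bases before to 50 after the annotated start of each gene (RefSeq, GRCm38.p6), 5′ to 3′ on the strand of the gene, and all 4 genes matched by symbol. Capitals mark any match, on either strand, to the 8 motifs searched. The first is Entpd1 at chr19:40612116-40612415 (plus strand), the second Nt5e at chr9:88327359-88327658 (plus strand), the third Ada at chr2:163750190-163750489 (minus strand) and the last Dpp4 at chr2:62412182-62412481 (minus strand).
Entpd1: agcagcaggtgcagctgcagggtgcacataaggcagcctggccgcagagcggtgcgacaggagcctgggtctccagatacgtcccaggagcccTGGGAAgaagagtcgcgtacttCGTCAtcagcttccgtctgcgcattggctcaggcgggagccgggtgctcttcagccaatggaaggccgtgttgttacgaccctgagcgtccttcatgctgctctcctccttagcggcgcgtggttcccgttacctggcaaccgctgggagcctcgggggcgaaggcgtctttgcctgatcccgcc
Nt5e: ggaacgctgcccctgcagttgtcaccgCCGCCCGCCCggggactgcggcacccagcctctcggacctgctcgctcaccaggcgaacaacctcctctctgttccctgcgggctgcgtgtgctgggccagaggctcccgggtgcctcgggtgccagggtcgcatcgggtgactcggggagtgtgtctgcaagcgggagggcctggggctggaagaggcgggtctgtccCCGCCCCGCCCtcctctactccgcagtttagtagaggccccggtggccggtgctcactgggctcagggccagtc
Ada: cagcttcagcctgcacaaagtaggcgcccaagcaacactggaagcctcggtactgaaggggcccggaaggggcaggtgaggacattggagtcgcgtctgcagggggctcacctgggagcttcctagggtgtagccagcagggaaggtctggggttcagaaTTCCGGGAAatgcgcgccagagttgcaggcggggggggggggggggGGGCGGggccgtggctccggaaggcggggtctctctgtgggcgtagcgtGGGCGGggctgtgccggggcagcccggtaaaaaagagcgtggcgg
Dpp4: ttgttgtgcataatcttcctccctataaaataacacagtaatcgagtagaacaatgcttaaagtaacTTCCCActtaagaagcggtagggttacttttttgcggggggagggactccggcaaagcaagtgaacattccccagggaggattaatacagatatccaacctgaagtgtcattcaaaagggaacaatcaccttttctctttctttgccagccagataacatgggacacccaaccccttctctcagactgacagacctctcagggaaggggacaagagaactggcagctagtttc
The Nt5e stretch held the GC box GGGCGG at 4 places, which overlap within each of 2 pairs, and the Ada stretch held it at 2 places. That motif occurs in 35.7% of all 32851 promoter stretches of this length. The Ada stretch also held 1 match to the STAT motif TTCNNNGAA, 90 bases before the start, a motif found in 8.30% of all stretches. Entpd1 held the Rbpj motif TGGGAA (25.6% of all stretches) 157 bases before its start and the short core of the cAMP response element, TGACG (20.8%), 135 bases before it. The core was also found before the other annotated start of Entpd1, which is not shown and has 48.7% G and C. Dpp4 held only the Rbpj motif, 183 bases before its start. The full cAMP response element TGACGTCA, the E box CACGTG and the forkhead motif TGTTTAC were in none of these windows. They occur in 1.79%, 7.15% and 3.65% of all stretches. For kappa B a single fixed sequence was searched, found in 0.155% of all stretches and in none of these windows. Its variants were not searched, so the windows may hold sites that fit a looser kappa B consensus. The Nt5e, Ada and Entpd1 stretches were rich in G and C (71.0%, 68.0% and 64.0% of bases, against a median of 52.7% over all stretches), and the Dpp4 stretch was not, at 45.3%. These matches describe the letters alone.

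The labelled cell type was checked on markers. All 9 measured T-cell and Treg markers were higher in proliferating Tregs. Cd3e, a chain of the T-cell receptor complex, had log2 values of 9.14 and 9.27 in resting and 10.73 and 10.62 in proliferating Tregs, and Foxp3 had 8.30 and 8.26 against 10.15 and 10.15. Markers of other blood cells were present and moved with the groups. All 10 neutrophil markers and 10 of 11 B-cell and plasma cell markers were lower in proliferating Tregs, 10 of 17 dendritic and myeloid markers were higher and 2 lower, and of 8 CD8 T-cell and NK-cell markers 1 was higher and 3 lower. The median of all genes fell slightly, with a log2 fold change of -0.17. The arrays give every gene a value and no detection calls were used, so no marker can be said to be at 0.

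On the deposited values, all 4 measured genes of the pathway rose in proliferating Tregs, by 1.41-fold to 2.40-fold, while every one of them had a negative log2 fold change after the arrays were centred on the Cd3 genes or on housekeeping genes. Entpd1 rose least and Nt5e most. Each gene was tested with limma's moderated test on log2 values, with Benjamini-Hochberg adjustment over all 22180 genes and a threshold of 0.05 on the adjusted p. By the same test 60.1% of all genes changed (25.6% were higher and 34.5% lower), and this is the background against which 4 of 4 stands. In the fit over all probe sets the 4 were higher too, where 19.3% of probe sets were. In each of the 4 genes both proliferating arrays lay above both resting arrays, as they did in 33.0% of all genes, while they lay below both in 48.1%. In bulk RNA of sorted cells, more RNA per cell and a larger share of cells that express a gene cannot be told apart.

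**Figure D1:**
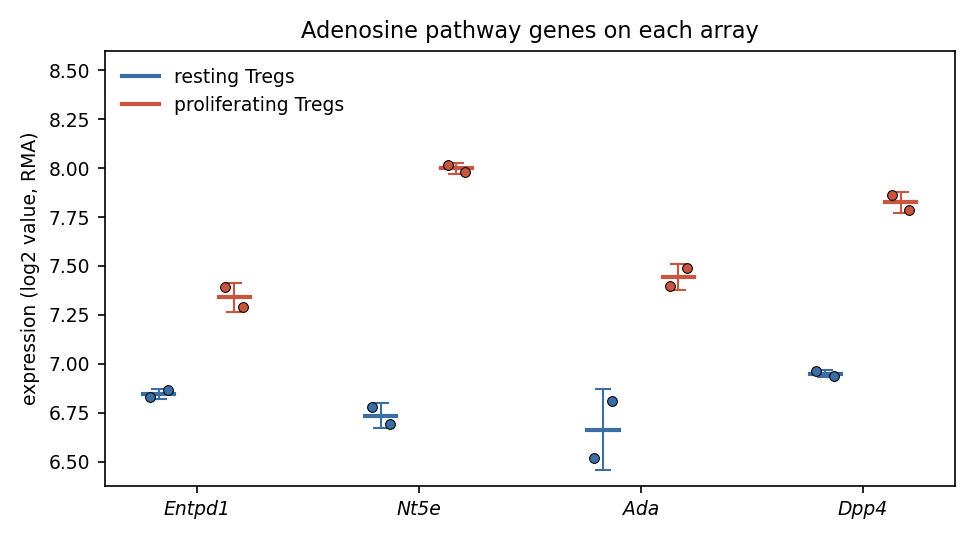
Deposited log2 expression values of the 4 measured adenosine pathway genes, with 1 point per array, horizontal bars for group means and error bars for the SD (n = 2 arrays per group). The proliferating arrays lie above the resting arrays for each gene, by 1.26 on the log2 scale for Nt5e and 0.49 for Entpd1, a direction that turns for all 4 genes when the arrays are centred on housekeeping or Cd3 genes.

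Nt5e, the gene of CD73 and of the step that makes adenosine, had log2 values of 6.78 and 6.69 in resting Tregs and 8.02 and 7.98 in proliferating Tregs. The arrays of a group lay within 0.1 of each other and the groups were 1.20 apart at their nearest. Nt5e thus rose 2.40-fold, from 6.74 ± 0.062 to 8.0 ± 0.028 (SD, n = 2 arrays per group), a log2 fold change of 1.26 with a standard error of 0.13 and a 95% interval of 0.97 to 1.56 (limma, adjusted p = 1.65e-04). It was the only one of the 4 to change by at least 1 on this scale, as 12.6% of all genes did upward, and 8.96% of all genes had a larger log2 fold change. The call held without any single array, with adjusted p = 6.88e-05 to 0.00795 from limma.

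Entpd1, the gene of CD39, is one of the Treg markers that the study chose on these arrays, so its direction here is not independent evidence. Apart from the arrays, the paper reports more CD39 protein by flow cytometry in proliferating than in resting Tregs. In Tregs expanded with soluble ligands it found no significant difference in CD39 from control Tregs. The log2 values of Entpd1 were 6.83 and 6.87 in resting and 7.39 and 7.29 in proliferating Tregs. The groups did not overlap, with a gap of 0.42. Entpd1 rose 1.41-fold, from 6.85 ± 0.027 to 7.34 ± 0.074 (SD, n = 2 arrays per group), a log2 fold change of 0.49 with a 95% interval of 0.20 to 0.79 (limma, adjusted p = 0.0122), and 22.9% of all genes had a larger one. This call was the least firm of the 4. It did not pass without resting replicate 1 (limma, adjusted p = 0.0769), without resting replicate 2 (0.0623) or after quantile normalization (0.0689), and over the alternatives with adjustment that kept its direction the adjusted p ranged from 0.00232 to 0.231, leaving out the minimum log2 fold change of 1, which it did not reach.

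Ada, the gene of adenosine deaminase, had log2 values of 6.52 and 6.81 in resting and 7.40 and 7.49 in proliferating Tregs. The resting arrays differed more from each other than for any other of the 4 genes, and the groups were still 0.59 apart. Ada rose 1.72-fold, from 6.66 ± 0.21 to 7.44 ± 0.066 (SD, n = 2 arrays per group), with a log2 fold change of 0.78 and a 95% interval of 0.44 to 1.12 (limma, adjusted p = 0.00324). Of all genes, 16.5% had a larger log2 fold change. Without resting replicate 1, the lower array, the log2 fold change was 0.63, and without resting replicate 2 it was 0.93, and both passed the test.

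Dpp4, the gene of CD26, had log2 values of 6.96 and 6.94 in resting and 7.86 and 7.79 in proliferating Tregs. Its groups were 0.82 apart and its resting arrays nearly coincided. Dpp4 rose 1.83-fold, from 6.95 ± 0.019 to 7.82 ± 0.056 (SD, n = 2 arrays per group), with a log2 fold change of 0.87 and a 95% interval of 0.58 to 1.17 (limma, adjusted p = 9.46e-04). Of all genes, 14.7% had a larger one.

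The 4 changes were set side by side without a test of their difference. Taken over every pair of a proliferating and a resting array, the difference for Nt5e was 1.20 to 1.33, for Dpp4 0.82 to 0.93, for Ada 0.59 to 0.97 and for Entpd1 0.42 to 0.56 on the log2 scale. The Nt5e differences lay above and the Entpd1 differences below those of the other genes, while those of Ada and Dpp4 overlapped. On these values the gene of the enzyme that makes adenosine and that of the enzyme that removes it were both higher, and the gene of the step from ATP to AMP was higher by less. Levels of different genes were not compared, since each probe set has its own sensitivity.

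**Figure D2:**
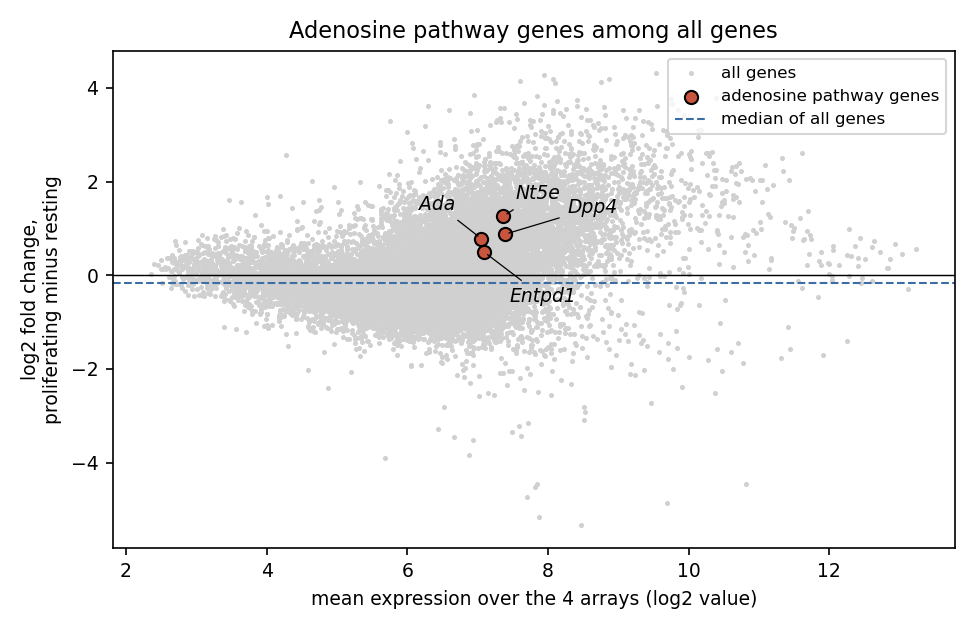
Log2 fold change (proliferating minus resting) against mean log2 expression over the 4 arrays, with 1 grey point for each of 22180 genes and the 4 adenosine pathway genes in red. On the deposited values all 4 lie above 0 and above the median of all genes (dashed, -0.17) but inside the cloud, since 8.96% of genes rose more than Nt5e and 22.9% more than Entpd1. After centring on housekeeping or Cd3 genes all 4 log2 fold changes are below 0.

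The direction rested on what the arrays were set against. Centring on the median of all genes moved that median by 0.23 and gave log2 fold changes of 1.5 for Nt5e, 1.11 for Dpp4, 1.01 for Ada and 0.73 for Entpd1. Quantile normalization moved the median by 0.11, with log2 fold changes of 0.99, 0.56, 0.66 and 0.34 in the same order. The 9 measured housekeeping genes themselves rose on the deposited values, by 0.35 to 3.52 on the log2 scale. Centred on them, which moved the median of all genes by -1.42, Nt5e was at -0.16 and did not pass the test (limma, adjusted p = 0.266), whereas Dpp4 (-0.55), Ada (-0.64) and Entpd1 (-0.93) were lower. Centred on Cd3d, Cd3e and Cd3g, which moved the median by -1.97, Nt5e was at -0.71, Dpp4 at -1.09, Ada at -1.19 and Entpd1 at -1.48, all past the test. Each adenosine gene thus rose by less than the mean of the T-cell receptor genes did. With these centrings 922 and 329 of all 22180 genes were higher, and 19605 and 21009 were lower.

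**Figure D3:**
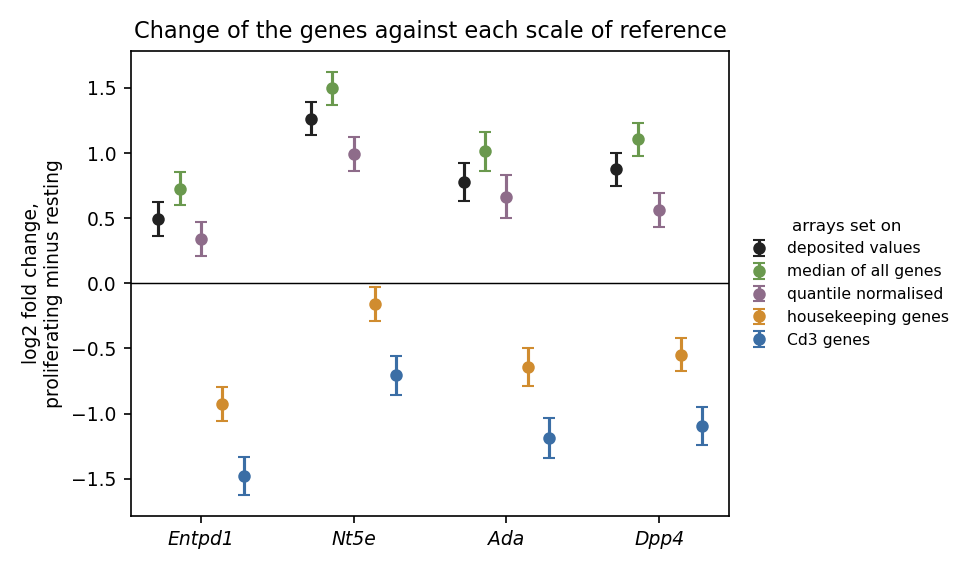
Log2 fold change of the 4 adenosine pathway genes (proliferating minus resting) on the deposited values and after each of 4 other scalings of the arrays, with error bars of 1 standard error from limma (2 arrays per group). The values lie above 0 on the first 3 scales (for Nt5e 1.26, 1.5 and 0.99) and below 0 when arrays are set on housekeeping genes (-0.16) or on Cd3 genes (-0.71), and Entpd1 is the lowest of the 4 on every scale.

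Because CD39 and CD73 are also carried by myeloid cells and B-cells, the marker lists were set beside the 4 genes as sums on each array. The summed level of the dendritic and myeloid list (log2 of the sum) was 11.9 on each resting array and 13 and 12.9 on the proliferating arrays. Its genes did not move alike. Clec4n and Clec7a, which encode the lectin receptors Dectin-2 and Dectin-1 of myeloid cells, rose most in the list. Clec4n had log2 values of 6.06 and 5.88 in resting and 10.24 and 10.10 in proliferating Tregs, a rise of 18.4-fold, and Clec7a had 6.17 and 6.39 against 9.16 and 9.12, a rise of 7.27-fold. Both rose by more than the mean of the Cd3 genes. The macrophage lysozyme gene Lyz2 had log2 values of 9.68 and 9.45 in resting and 11.11 and 10.75 in proliferating Tregs, and Itgax, which encodes CD11c of dendritic cells, had 6.14 and 6.47 against 6.23 and 5.95. The sum of the B-cell and plasma cell list went from 12 on each resting array to 10.0 and 10.1, with Cd79a of the B-cell receptor at 9.13 and 9.18 against 5.63 and 6.0. That of the neutrophil list went from 13.4 and 13.6 to 9.67 and 9.59, with the calprotectin gene S100a8 at 12.03 and 12.20 against 7.45 and 7.07. The CD8 T-cell and NK-cell sum was 10.2 on each resting array and 9.71 and 9.83 on the proliferating arrays, with Cd8a at 7.81 and 7.81 against 6.42 and 6.24. The T-cell and Treg sum rose from 11.6 on each resting array to 13.8 on each proliferating array. The part of these cells in the values of Entpd1, Nt5e, Ada and Dpp4 was not tested.

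**Figure D4:**
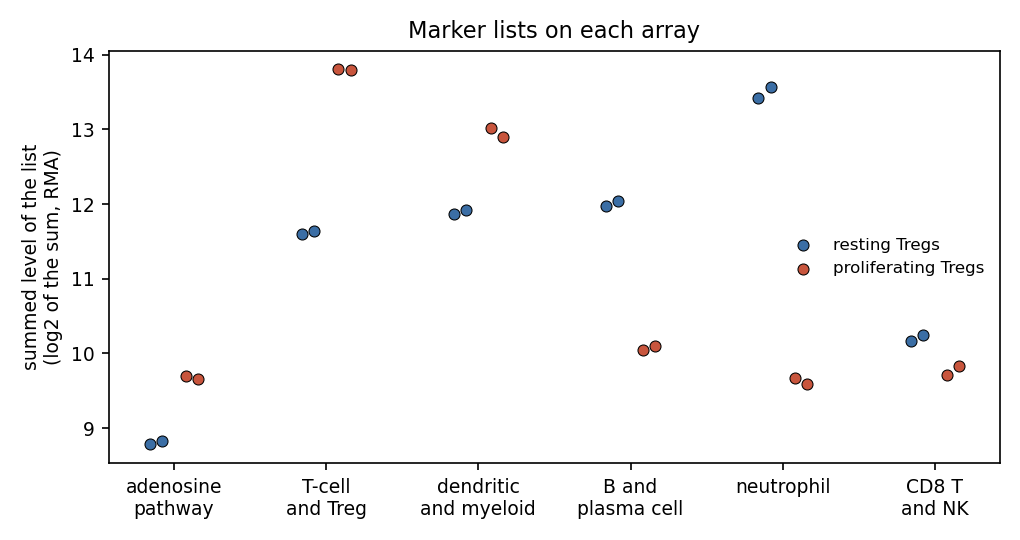
Summed level of the adenosine pathway genes and of 5 marker lists on each array (log2 of the sum of the unlogged values, 1 point per array). T-cell and Treg and myeloid sums are higher and B-cell, neutrophil and CD8 T and NK sums lower on the proliferating arrays, on the deposited values. The sum of the 4 adenosine genes went from 8.78 and 8.83 to 9.69 and 9.66.

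The genes around the pathway were taken as 8 lists by role, of 119 genes in all, of which 105 were analysed. In proliferating Tregs 38 of the 105 rose, 29 fell and 38 did not pass the test. These are 36.2% higher and 27.6% lower, against 25.6% and 34.5% of all genes. Those shares of all genes are also the background for the count of each list below. The median log2 fold change of the 105 was -0.012, against -0.17 for all genes. Fewer of the 105 were called lower when either resting array was left out, and the same held over all genes. Of the genes named below, Enpp3, Slc29a1 and Prcp also did not pass without proliferating replicate 1, nor Rapgef3, Adcy9, Pde4b and Nadk without proliferating replicate 2. After centring on housekeeping genes 6 were higher and 87 lower, and after centring on the Cd3 genes 2 were higher and 98 lower.

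**Figure D5:**
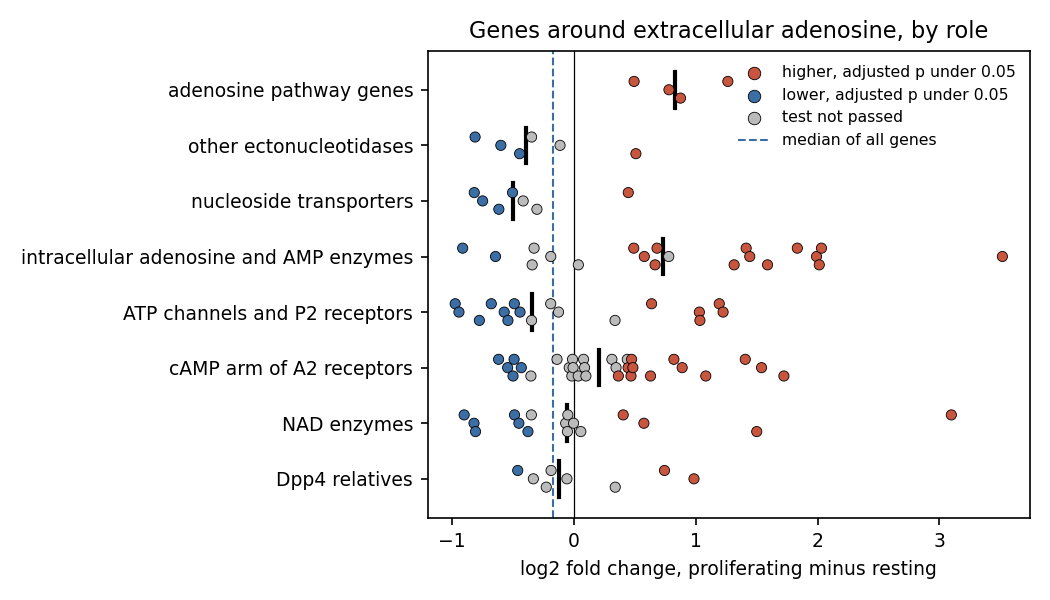
Log2 fold change (proliferating minus resting, deposited values) of each measured gene but Adora3, by role, with black bars for the median of each list and a dashed line for the median of all genes (-0.17). Red and blue points passed the test as higher and lower. The enzymes inside the cell have a list median of 0.73 and the nucleoside transporters of -0.50, and after centring on the Cd3 genes the red points lie below 0, other than those of Hprt, Nampt, Nt5c3, Adk and Ahcy.

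Other enzymes of the cell surface that act on nucleotides were mixed in direction. Of 6 analysed, 1 was higher and 3 were lower, with a median log2 fold change of -0.40. Bst1, which encodes CD157, a relative of CD38, rose by 0.51 on the log2 scale, and by 0.74 after median centring or quantile normalization, but was below 0 after centring on housekeeping or Cd3 genes and did not pass without resting replicate 2 (limma, adjusted p = 0.0875). Alpl, the tissue-nonspecific alkaline phosphatase that also makes adenosine from AMP, fell by 0.81 and its other probe set fell by 0.72. Entpd8, a relative of Entpd1, fell by 0.60, and Enpp3, an ectonucleotide pyrophosphatase, fell by 0.45. Neither of these falls passed after median centring (-0.37 and -0.21) or quantile normalization (-0.31 and -0.15), Entpd8 did not pass without resting replicate 2, and Enpp3 did not without either resting array. Of the adenosine receptors only Adora3 was analysed. Its log2 values were 6.14 and 5.81 in resting and 5.87 and 5.57 in proliferating Tregs, which overlapped, with a log2 fold change of -0.25 and a 95% interval of -0.66 to 0.15 (limma, adjusted p = 0.229).

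The listed transporters, of families that carry nucleosides through membranes of the cell surface or inside the cell, were lower or did not pass the test, except Slc29a1. Of 7, 4 were lower and 1 was higher, with a median of -0.50. Slc29a4, Slc29a2, Slc28a3 and Slc28a1 fell by 0.82, 0.75, 0.62 and 0.50 on the log2 scale. Slc28a3 and Slc28a1 did not pass after median centring (-0.38 and -0.27), after quantile normalization (-0.32 and -0.22) or without either resting array. Slc29a3, which did not pass with the probe set used (-0.30), fell by 1.07 with its other probe set. Slc29a1, the equilibrative transporter ENT1 and the main uptake route for adenosine in many cells, rose by 0.45 on the deposited values (limma, adjusted p = 0.0202) but was lower after centring on housekeeping genes. Its other probe set had a log2 fold change of -0.049, so its direction depends on the probe set, and it did not pass without either resting array.

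The list of enzymes that handle adenosine, AMP and related nucleotides inside the cell had the highest median of the 8 lists. Some of its higher genes, among them Hprt, Nt5c3, Dck and Samhd1, act mainly on other bases, nucleosides or nucleotides. Of 20 analysed, 13 were higher, 2 lower and 5 did not pass, with a median of 0.73. Adk, the kinase that returns adenosine to AMP, had log2 values of 6.20 and 6.12 in resting and 8.13 and 8.21 in proliferating Tregs. Its arrays did not overlap and it rose 4.04-fold (limma, adjusted p = 2.38e-05). Ahcy, which releases adenosine from S-adenosylhomocysteine, rose by 1.99 on the log2 scale, and its other probe set by 1.51. Hprt, which salvages hypoxanthine, the base of the inosine that adenosine deaminase makes, rose by 3.52, and the nucleotidase gene Nt5c3 by 2.03. Hprt is also one of the housekeeping genes used. Centred on these genes all 4 stayed above 0, although Ahcy, at 0.57, did not pass (limma, adjusted p = 0.0647). Centred on the Cd3 genes Hprt was still higher, at 1.55, while Nt5c3, Adk and Ahcy were near 0, at 0.062, 0.044 and 0.022, and did not pass the test. The adenylate kinase gene Ak1 and the cytosolic AMP nucleotidase gene Nt5c1a were the lower genes, at -0.91 and -0.64, and Nt5c1a did not pass after quantile normalization (-0.36). Pnp, the phosphorylase that follows adenosine deaminase, had log2 values of 6.47 and 5.35 in resting and 6.77 and 6.61 in proliferating Tregs and did not pass (limma, adjusted p = 0.0655).

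Channels and receptors for extracellular ATP and other nucleotides moved in both directions. Of 17, 5 were higher and 8 lower, with a median of -0.35. P2ry14, a receptor for UDP-sugars, rose by 1.22, P2ry10 by 1.19, the UDP receptor gene P2ry6 by 1.03 and Panx1, a channel that releases ATP, by 1.03. P2ry10 is in the list by its name and is not an established nucleotide receptor. P2rx7, an ATP-gated channel, had log2 values of 7.19 and 7.45 in resting and 7.91 and 8.0 in proliferating Tregs and rose by 0.64 (limma, adjusted p = 0.00688). After quantile normalization P2rx7 was at 0.12 (adjusted p = 0.584 from limma), and it did not pass without resting replicate 1. These rises were on the deposited values, and all 5 genes were below 0 after centring on housekeeping or Cd3 genes. P2ry4, P2rx6, P2rx1 and P2rx2 were among the lower genes, at -0.98, -0.94, -0.78 and -0.68. The proliferating arrays of P2rx6 lay far apart, at 6.29 and 5.61. How these falls hold under the alternatives was not examined gene by gene.

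Downstream of the receptors, 12 of 30 analysed genes of the cAMP arm were higher and 5 lower, with a median of 0.20. Prkaca, a catalytic subunit of protein kinase A, had log2 values of 6.93 and 6.87 in resting and 8.62 and 8.63 in proliferating Tregs. It rose by 1.72 on the log2 scale, and its other probe set by 0.76. The G protein gene Gnb1 rose by 1.54, Crem, whose products bind cAMP response elements, by 1.41 and the phosphodiesterase gene Pde8a by 1.08. All 4 were below 0 after centring on the Cd3 genes, and Crem and Pde8a also after centring on housekeeping genes. Gnb1 did not pass after quantile normalization (0.33) or the housekeeping centring (0.12). The lower genes were the adenylyl cyclase genes Adcy6 and Adcy9 (-0.54 and -0.50), the phosphodiesterase genes Pde4a and Pde4b (-0.49 and -0.43) and Rapgef3, a cAMP-activated exchange factor (-0.62). None of these 5 falls passed after median centring, with log2 fold changes of -0.20 to -0.39. Those of Adcy6, Adcy9 and Pde4b did not pass after quantile normalization either (-0.35, -0.33 and -0.19). The other probe set of Rapgef3 had a log2 fold change of -0.91 on the deposited values. Adcy6 was also lost without resting replicate 1, and the other 4 without either resting array.

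Among the genes around NAD, which CD38 consumes, 4 of 16 were higher and 6 lower, with a median of -0.061. These are 25% higher and 37.5% lower, near the 25.6% and 34.5% of all genes. Nampt, the rate-limiting enzyme of NAD salvage, had log2 values of 5.29 and 5.59 in resting and 8.44 and 8.63 in proliferating Tregs. It rose 8.57-fold (limma, adjusted p = 1.34e-05), and after each scaling run, at 1.13 with the Cd3 centring. Parp2, a polymerase that uses NAD, rose by 1.5, Sirt2 by 0.57 and Nadk by 0.40 on the deposited values, the last pair being below 0 after centring on housekeeping genes and all 3 after centring on the Cd3 genes. Sirt2 and Nadk did not pass after quantile normalization either (0.15 and 0.030), nor Sirt2 without resting replicate 1 and Nadk without either resting array, and Parp2 did not pass after centring on housekeeping genes (0.079). Trpm2, a channel opened by ADP-ribose, and the NAD hydrolase gene Sarm1 had log2 fold changes of -0.90 and -0.82, and Sarm1 did not pass without resting replicate 1.

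Of 8 relatives of Dpp4 and other prolyl peptidases, 2 were higher and 1 lower, with a median of -0.12. Prep rose by 0.99 and Dpp8, a cytosolic peptidase of the same family, by 0.74, and both were below 0 after centring on housekeeping or Cd3 genes. Prcp fell by 0.46, and by 0.23 after median centring, which did not pass. Prep and Prcp did not pass without either resting array, nor Dpp8 without resting replicate 2. Fap, the closest relative of Dpp4, had log2 values of 5.84 and 5.77 in resting and 5.46 and 5.48 in proliferating Tregs and did not pass the test (limma, adjusted p = 0.0509).

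The genes most like each member in pattern were found by the distance between their 4 array values after each gene's mean was subtracted. With 4 arrays in 2 groups, likeness rests on little more than a like difference between the groups. Nearest to Nt5e were the mitochondrial chaperone gene Hspa9 (distance 0.0232), Ilkap (0.0291) and Lpxn (0.0295). Nearest to Entpd1 were Relch (0.0223), Dpf2 (0.0316) and Chst12 (0.0349). Mgmt, a DNA repair gene, Ttf2 and Necap1 were nearest to Ada (0.0211, 0.0268 and 0.0318), and Tmem230, Efcab7 and Slc3a2, the heavy chain of amino acid transporters, to Dpp4 (0.0248, 0.0325 and 0.0346).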

How the data were processed

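RNA of Tregs sorted by dye dilution was hybridised to 1 array per sample (2 resting, 2 proliferating). The deposited values are log2 expression values made by the authors with RMA in Partek 6.6, according to the submitters' processing notes. The table states no scale or centring, and log2 was inferred from RMA and the values. The methods differ, naming housekeeping genes for normalization, R, and another array design. Array totals give no depth, and the number of arrays limits the precision.

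Gene names came from the platform annotation, in which 23521 probe sets carried 1 gene name, 1820 several (not used) and 16004 none, and 23328 matched the RefSeq gene table by gene identifier. The probe set of highest mean stood for each of 22180 genes, and no filter was applied. The difference of proliferating minus resting was fitted by limma 3.58.1 (lmFit, eBayes; R 4.3.3), with 2 residual and 5.48 prior degrees of freedom and Benjamini-Hochberg adjustment over all genes at 0.05. A second fit used all 41345 probe sets. The script was tested on simulated data. Identical values were shared by at most 6 genes in any pair of arrays.

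The members, the gene lists and the tests were chosen with earlier results of these data known. The text names all members, up to 4 called genes per list with the largest change, the defining markers Cd3e, Foxp3, Cd79a, Lyz2, Itgax, S100a8 and Cd8a, and the 3 genes nearest in pattern to each member (predicted genes, olfactory and vomeronasal receptors, miRNAs and receptor segments left out). P2rx7, Slc29a1, Slc29a3, Sirt2, Nadk, Pnp, Fap and the lower genes of the AMP enzyme and cAMP lists were named after their values were seen. So were P2ry4, P2rx6, P2rx1 and P2rx2. Adora3 was named as the only receptor analysed. Alternatives were a trended and robust prior, the dimmest 25% of genes left out, the mean of a gene's probe sets, quantile normalization, centring on the median, on 9 housekeeping genes or on Cd3d, Cd3e and Cd3g, the replicate number as a block, leaving out single arrays (the lone array of a group is then assumed to vary like the other group), the methods' t-test and paired t-test with and without adjustment, and a minimum log2 fold change of 1. Sequences are RefSeq's of GRCm38.p6.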

Additional observations from a re-analysis of the deposited data

How the results depend on the processing

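Of the 4 adenosine genes, 4 were higher with a trended and robust prior, with dim genes left out, with the mean of probe sets, after median centring and by the methods' t-test without adjustment, and 3 after quantile normalization. In these fits 4893 to 7269 of all genes were higher, out of 16635 with dim genes left out and 22180 otherwise. Without any single array all 4 log2 fold changes stayed above 0, although Entpd1 did not pass without either resting array. After centring on housekeeping genes 0 were higher and 3 lower, and after centring on the Cd3 genes 0 and 4. The methods' t-test with adjustment called 2 higher, as it did 2781 of all 22180 genes. The methods' paired t-test called 2 without adjustment, as it did 3000 of all genes, and 0 with it, as over all genes. A minimum log2 fold change of 1 left 1, and 2796 of all genes. In the fit over all probe sets 4 of the 4 were higher, where 19.3% of all probe sets were. Fewer of the 4 were higher when 1 array was left out, and 1 was with the minimum change. With the number in the sample title as a replicate block, 4 genes and 3 probe sets were higher, and the wider network had 39 higher and 28 lower. The numbers mark no stated pairing, and deviations of same-numbered arrays correlated at r = 0.0179 across genes. With 2 arrays per group this value cannot show whether same-numbered arrays came from the same culture.

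For the wider network, with 38 higher and 29 lower, median centring gave 12 lower, the housekeeping centring 6 higher and 87 lower and the Cd3 centring 2 and 98. The t-test with adjustment gave 17 and 8, the paired t-test 25 and 12 without adjustment and 0 and 0 with it, and the minimum change 19 and 0. Without 1 array, 26 to 37 were higher and 11 to 29 lower. Over all genes, the share of higher genes among calls was 42.7% as deposited, 64.3% after median centring, 4.49% and 1.54% after the housekeeping and Cd3 centrings, 64.5% by the t-test with adjustment and 54.4% by the paired t-test without it. The adjusted paired t-test called 0 genes higher and 2 lower (3000 and 2515 at an unadjusted p under 0.05).

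Log2 fold changes that changed sign did so after the housekeeping and Cd3 centrings. They were -0.93 and -1.48 for Entpd1, -0.16 and -0.71 for Nt5e, -0.64 and -1.19 for Ada, -0.55 and -1.09 for Dpp4, -0.91 and -1.46 for Bst1, -0.98 and -1.52 for Slc29a1, -0.20 and -0.75 for P2ry14, -0.23 and -0.78 for P2ry10, -0.39 and -0.94 for P2ry6, -0.39 and -0.94 for Panx1, -0.78 and -1.33 for P2rx7, -0.015 and -0.56 for Crem, -0.34 and -0.89 for Pde8a, -0.85 and -1.40 for Sirt2, -1.02 and -1.57 for Nadk, -0.44 and -0.98 for Prep, and -0.68 and -1.23 for Dpp8. With the Cd3 centring alone they were -0.25 for Prkaca, -0.43 for Gnb1 and -0.47 for Parp2. Which reference keeps a constant level between resting and dividing Tregs was not tested. Of the 64 alternatives over the 4 genes without the minimum change, 45 kept the direction and passed, t-tests without adjustment included. In 8 the sign turned, and all of these passed as lower except Nt5e with the housekeeping centring.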
